A study of Mus musculus with 10 samples.

Results

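The 5 mouse alpha-arrestin genes Arrdc1, Arrdc2, Arrdc3, Arrdc4 and Txnip were followed across the series. They were picked by name as a gene family, with the difference between withdrawal and control libraries already known, so the family was in part selected on the comparison described here. That comparison is therefore given for the 5 members as a description and is not offered as a test. All 5 were present among the 56691 genes of the deposited table, and all 5 passed the filter on low values (a mean of at least 1 FPKM, a level scaled to gene length and sequencing depth) that kept 14928 genes.

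Alpha-arrestins share a fold with the beta-arrestins that switch off G protein-coupled receptors. Most of them carry short proline and tyrosine motifs that recruit ubiquitin ligases of the Nedd4 family, and they serve as adaptors that mark membrane proteins for removal from the cell surface. Txnip, the thioredoxin-interacting protein, also binds thioredoxin, which keeps protein thiols reduced, and lowers glucose uptake by promoting endocytosis of glucose transporters. 

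The libraries came from the medial habenula, an epithalamic nucleus with cholinergic neurons, of wild-type mice. The 6 mice of the withdrawal group received nicotine ditartrate at 4 mg/kg, 2 intraperitoneal injections a day for 14 days, and saline in its place from day 15. The 4 control mice received intraperitoneal saline for 17 days. Tissue was collected on day 17 in both groups. The sample labels name FACS-sorted cholinergic neurons, whereas the design text names tissue, and neither gives sex, age, batch or litter. Each library is taken here as 1 mouse because the design text counts as many mice as there are libraries in each group.

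Read totals lay between 15023448 and 22026333 counts. In 8 libraries the summed level of 10 medial habenula markers lay between 1220 and 1801 CPM (counts scaled to a common library size with TMM factors). It was 37.4 CPM in control 2 and 48.6 CPM in withdrawal 2, so the habenula label was not borne out by these markers in those libraries. Control 2 instead held 2979 CPM of 8 hippocampal and cortical markers, against 401 to 1083 CPM in the other 9 libraries. Oligodendrocyte, astrocyte and microglial markers were present in all 10 libraries. Because of the pair of divergent libraries, the fitted change of each member is also given without control 2 and withdrawal 2. Over all 10 libraries edgeR called 31 genes, 5 higher and 26 lower in withdrawal, which is 0.208% of those tested. The split was 151 higher and 229 lower in DESeq2, and 0 higher and 6 lower in edgeR on library totals. Leaving out withdrawal 2 alone gave 911 calls, leaving out control 2 alone gave 34, and leaving out any other library gave 4 to 10. Without control 2 and withdrawal 2 together, 2088 genes (14.0%) were called.

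The family was led by Txnip and Arrdc3 when compared per gene length. Over all 10 libraries the mean level was 14.8 ± 6.28 FPKM for Txnip, 13.4 ± 2.94 for Arrdc3, 5.85 ± 3.69 for Arrdc2, 3.82 ± 1.62 for Arrdc1 and 3.17 ± 1.57 for Arrdc4 (SD, n = 10). Txnip exceeded Arrdc3 in 5 of the 10 libraries, so these neighbours were not separated, whereas Arrdc3 exceeded Arrdc2 in 10 of 10. Arrdc2 exceeded Arrdc1 in 4 of 4 controls but in 1 of 6 withdrawal libraries, and Arrdc1 exceeded Arrdc4 in 2 of 4 controls and 5 of 6 withdrawal libraries. The summed level of the 5 genes was 54.55, 30.5, 49.7 and 63.95 FPKM in controls 1 to 4. In withdrawal it lay between 32.8 and 39.7 FPKM. In these FPKM values, which carry no TMM factors, control 2 was the lowest of all 10 libraries. The other 3 controls were above every withdrawal library. The TMM factor was 0.833 in control 2 and between 0.993 and 1.05 in the other libraries, so its place as lowest depends on the scaling.

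**Figure D1:**
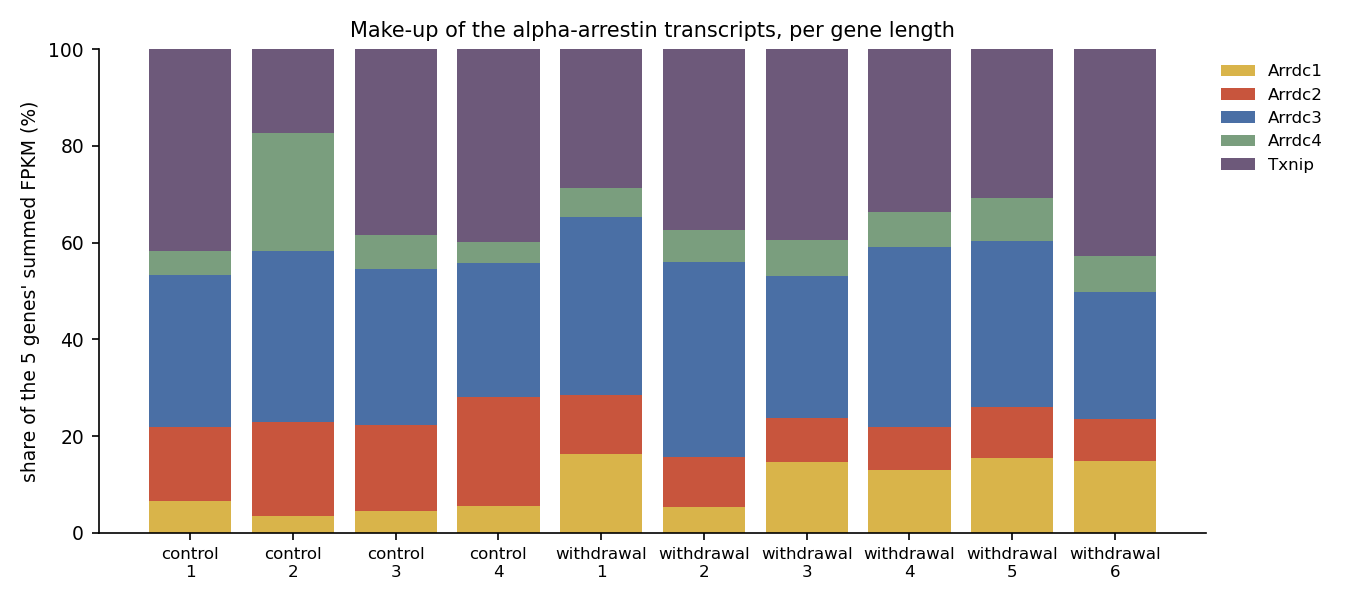
Stacked bars give, for each library on the x axis, the percentage of the 5 genes' summed FPKM that each gene contributed. Txnip and Arrdc3 held the largest shares in every library but control 2, Arrdc1 took 12.9% to 16.3% in the 5 withdrawal libraries other than withdrawal 2, and Arrdc4 took 24.5% in control 2.

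Arrdc2 had the widest separation of the groups. Arrdc2 (ENSMUSG00000002910) is a little-studied member of the family that carries the arrestin fold. Its level was 26.2, 22.8, 28.7 and 45.2 CPM in controls 1 to 4. In withdrawal the lowest, median and highest values were 9.59, 10.9 and 12.8 CPM. All 6 withdrawal libraries lay below all 4 controls, control 2 included, and control 4 stood highest. The mean was 30.7 ± 9.96 CPM (SD, n = 4) in controls and 11.1 ± 1.42 CPM (SD, n = 6) in withdrawal, 2.77-fold higher in controls, with a log2 change of -1.47 (SE 0.184). It was the only member of the 5 called by edgeR at an adjusted p below 0.05 over all genes, against 0.208% of all tested genes, and the only one whose withdrawal libraries all lay below the controls, which held for 1.69% of tested genes. Those shares are background for a gene chosen with this contrast in view. The call was lost when control 3 or any withdrawal library other than withdrawal 2 was left out, on library totals without scaling factors, and in limma on log2(FPKM + 1), where the log2 change was -1.15.

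In withdrawal the SD of Arrdc2 was 1.85 times the value that counting error alone would give, and in controls it was 7.65 times. Among the controls, control 4 stood above the other 3, which lay between 22.8 and 28.7 CPM. The difference was as large without control 2 and withdrawal 2, with a log2 change of -1.64 (SE 0.176). Against Arrdc1 in the same library, a ratio that does not depend on how libraries are scaled, Arrdc2 stood at 2.29, 5.50, 4.01 and 4.13 times the FPKM of Arrdc1 in controls 1 to 4. In withdrawal that ratio was 1.92 in withdrawal 2 and between 0.595 and 0.739 in the other 5 libraries.

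The bases before the Arrdc2 start are shown because this gene separated the groups most. The sequence is from RefSeq on GRCm38.p6, chr8:70839721-70839970, minus strand, 250 bases ending just before the start, printed 5′ to 3′ on the gene's strand. Capitals mark every match to CCAAT or its reverse complement. No match to the other motifs searched (given with Txnip) lay in this window.
Arrdc2: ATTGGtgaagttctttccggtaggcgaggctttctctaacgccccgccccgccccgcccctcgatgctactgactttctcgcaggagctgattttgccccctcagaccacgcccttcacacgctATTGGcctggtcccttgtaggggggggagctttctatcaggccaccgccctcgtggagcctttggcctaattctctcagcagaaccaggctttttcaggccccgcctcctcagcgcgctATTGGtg

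Txnip and Arrdc4 are the members tied most closely to glucose. Both lower glucose uptake, and both are known targets of the Mlx partner proteins, transcription factors that respond to glucose phosphate. In control 2 their order was reversed. Txnip (ENSMUSG00000038393) was 69.6, 19.7, 59.4 and 77.2 CPM in controls 1 to 4, and its lowest, median and highest values in withdrawal were 29.5, 37.8 and 50.8 CPM. Control 2 was the lowest of all 10 libraries, and the other 3 controls were above every withdrawal library. The mean was 56.5 ± 25.6 CPM in controls (SD, n = 4) and 38.6 ± 8.36 CPM in withdrawal (SD, n = 6), a log2 change of -0.55 (SE 0.321) that edgeR did not call. Without control 2 the log2 change was -0.84 (SE 0.171), without control 4 it was -0.36, and without control 2 and withdrawal 2 it was -0.89 (SE 0.167).

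Markers of choroid plexus and meninges varied between libraries alongside Txnip. The summed level of 7 choroid plexus markers (Ttr, Folr1, Kl, Clic6, Aqp1, Kcne2 and Otx2) was 8262, 82.5, 7387 and 10276 CPM in controls 1 to 4. It was 2920, 13310, 111, 4584, 2220 and 9768 CPM in withdrawal 1 to 6. Like Txnip, it was lowest in control 2 and, within withdrawal, higher in withdrawal 2 and 6 than in withdrawal 1, 4 and 5, while withdrawal 3 was low for these markers and not for Txnip. The summed level of 7 meningeal markers was 29.6 CPM in control 2, 219 to 281 CPM in the other controls, and 45.4 to 255 CPM in withdrawal. The mean was lower in withdrawal for 4 of 7 choroid plexus and 7 of 7 meningeal markers, none was called, and none was at 0 in any library. Their part in the Txnip difference was not tested.

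Arrdc4 (ENSMUSG00000042659) showed the opposite in control 2. It was 10.5, 36.2, 14.3 and 10.8 CPM in controls 1 to 4, and its lowest, median and highest values in withdrawal were 7.74, 10.1 and 11.8 CPM. Control 2 was by far the highest library, and the remaining controls overlapped the withdrawal libraries. The log2 change was -0.83 (SE 0.332) with control 2 and -0.24 (SE 0.152) without it, and edgeR called neither. The FPKM ratio of Txnip to Arrdc4 was 0.703 in control 2. It lay between 3.41 and 9.22 in the other 9 libraries. Control 2 was also the library with the highest hippocampal and cortical marker sum and near-absent habenula markers, and the part of these cells in the Txnip and Arrdc4 levels was not tested.

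The promoters of this pair are shown because they are the members for which a glucose-responsive element is known. Motifs searched on both strands were CACGNG repeated after 5 bases (the arrangement of a carbohydrate response element), the E-box CACGTG, the forkhead motif GTAAACA, the glucocorticoid receptor motif AGAACA and CCAAT. They occurred in 0.0461%, 6.04%, 3.17%, 16.03% and 33.8% of 32536 distinct RefSeq promoter windows of the same 250 bases. Both sequences are from RefSeq on GRCm38.p6: Txnip at chr3:96557707-96557956, plus strand, and Arrdc4 at chr7:68749239-68749488, minus strand, with capitals at every match.
Txnip: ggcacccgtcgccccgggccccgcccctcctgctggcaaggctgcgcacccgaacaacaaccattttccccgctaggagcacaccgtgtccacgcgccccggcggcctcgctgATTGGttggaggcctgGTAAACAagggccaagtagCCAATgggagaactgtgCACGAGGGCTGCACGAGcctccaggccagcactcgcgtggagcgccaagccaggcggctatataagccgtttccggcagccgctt
Arrdc4: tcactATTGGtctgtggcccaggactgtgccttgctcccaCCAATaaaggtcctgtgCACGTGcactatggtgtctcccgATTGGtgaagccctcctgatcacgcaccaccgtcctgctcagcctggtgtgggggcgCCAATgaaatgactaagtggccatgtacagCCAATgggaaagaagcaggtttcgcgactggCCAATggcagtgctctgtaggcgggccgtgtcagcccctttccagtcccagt

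In the Txnip window the repeat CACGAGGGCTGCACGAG began 85 bases before the start, 1 of 15 windows in the table with that arrangement, and a forkhead match began 121 bases before it. CCAAT or its complement matched in 2 places. The Arrdc4 window held an E-box, 193 bases before the start, and 6 CCAAT matches, and no repeat. The Arrdc2 window held 3 CCAAT matches, and the Arrdc1 window held no match. Of the 3 Arrdc3 windows, 2 overlapping ones held the same CCAAT match. AGAACA matched in none of the 7 windows of the 5 members, and the whole receptor motif was not searched. These are matches of letters in a short window, and the libraries hold no measurement of binding.

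Reads of Txnip could not be separated from its antisense partner by the stated methods, since the strand setting of the counting is not given. In GENCODE M21 the antisense gene Gm15441 overlaps Txnip over 3927 bases. It was listed with 0 to 8 counts in a library, at most 1.11% of the Txnip count. The noncoding gene 1700023H06Rik overlaps Arrdc3 on the other strand over 1301 bases and had 1 to 6 counts. Arrdc1, Arrdc2 and Arrdc4 overlapped no other gene in that annotation.

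Arrdc3 is an adaptor for the ubiquitination of surface proteins such as the beta2-adrenergic receptor. Arrdc3 (ENSMUSG00000074794) was 105, 81.2, 99.8 and 108 CPM in controls 1 to 4. In withdrawal its lowest, median and highest values were 61.3, 72.6 and 97.03 CPM. Control 2 was the lowest control and withdrawal 2 the highest withdrawal library, and the groups overlapped through these libraries alone. The mean was 98.7 ± 12.2 CPM in controls (SD, n = 4) and 73.7 ± 13.1 CPM in withdrawal (SD, n = 6), a log2 change of -0.42 (SE 0.136) that edgeR did not call. Without both libraries the log2 change was -0.60 (SE 0.0851).

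Arrdc3 moved with oligodendrocyte markers from library to library. The summed level of 6 such markers (Mbp, Mog, Mag, Mobp, Cnp and Cldn11) was 8320.4, 6163, 7662 and 8327 CPM in controls 1 to 4. It was 6213, 10222.5, 4604, 6937, 5268 and 4075 CPM in withdrawal 1 to 6. Withdrawal 2 was the highest withdrawal library and control 2 the lowest control for the markers and for Arrdc3 alike, and withdrawal 3 and 6 were the lowest of all for both. The mean was lower in withdrawal for 6 of the 6 markers, none was called, and none was at 0 in any library. A sort for cholinergic neurons, as the sample labels state, would remove oligodendrocytes. Their part in the Arrdc3 difference was not tested, and in bulk RNA fewer cells of a type cannot be told apart from less RNA per cell.

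**Figure D2:**
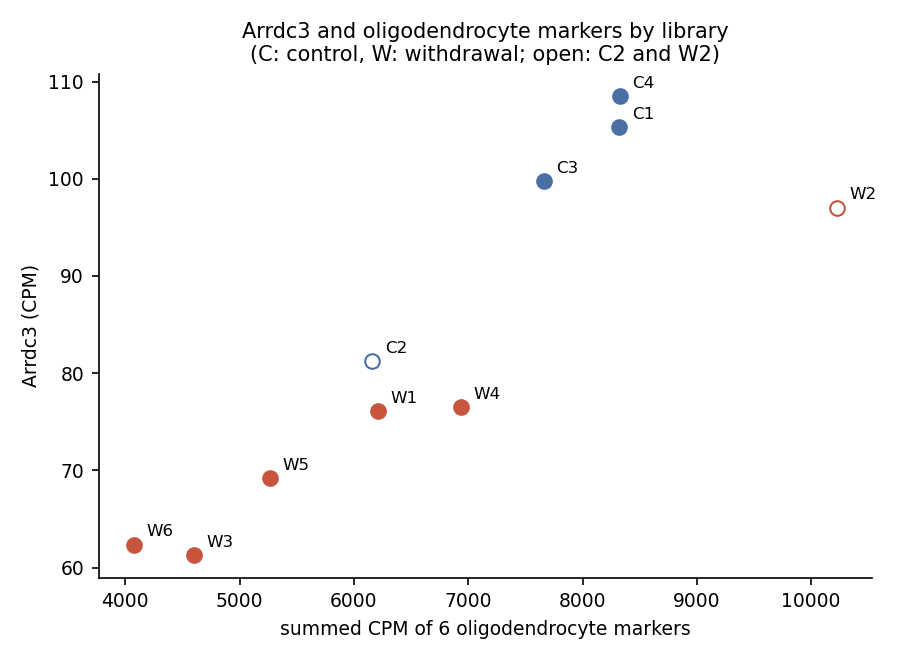
Each point is a library, with the summed CPM of the 6 oligodendrocyte markers on the x axis and Arrdc3 in CPM on the y axis. Withdrawal 3 and 6 are lowest on both axes, and control 2 and withdrawal 2 sit away from the rest of their groups on both.

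Arrdc1 was the only member whose mean was higher in withdrawal. Arrdc1 drives the budding of small vesicles from the plasma membrane by recruiting Tsg101, a component of the ESCRT membrane-cutting machinery. Arrdc1 (ENSMUSG00000026972) was 8.85, 3.21, 5.57 and 8.50 CPM in controls 1 to 4. In withdrawal its lowest, median and highest values were 5.16, 12.3 and 14.1 CPM. Withdrawal 2 lay among the controls, and the other 5 withdrawal libraries were above all 4 controls. The mean was 6.53 ± 2.66 CPM in controls (SD, n = 4) and 11.3 ± 3.25 CPM in withdrawal (SD, n = 6), a log2 change of 0.79 (SE 0.335) that edgeR did not call. Without control 2 and withdrawal 2 it was 0.71 (SE 0.164).

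The lowest Arrdc1 values rested on few reads. Control 2 had 59 Arrdc1 counts, an exact 95% Poisson interval of 2.45 to 4.15 CPM. Withdrawal 2 had 104 counts and an interval of 4.22 to 6.26 CPM. Reads carry no molecular identifiers, so such intervals cover counting error only. Arrdc1 was lowest in the same 2 libraries whose habenula markers were near-absent, and the part of tissue content in its level was not tested.

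**Figure D3:**
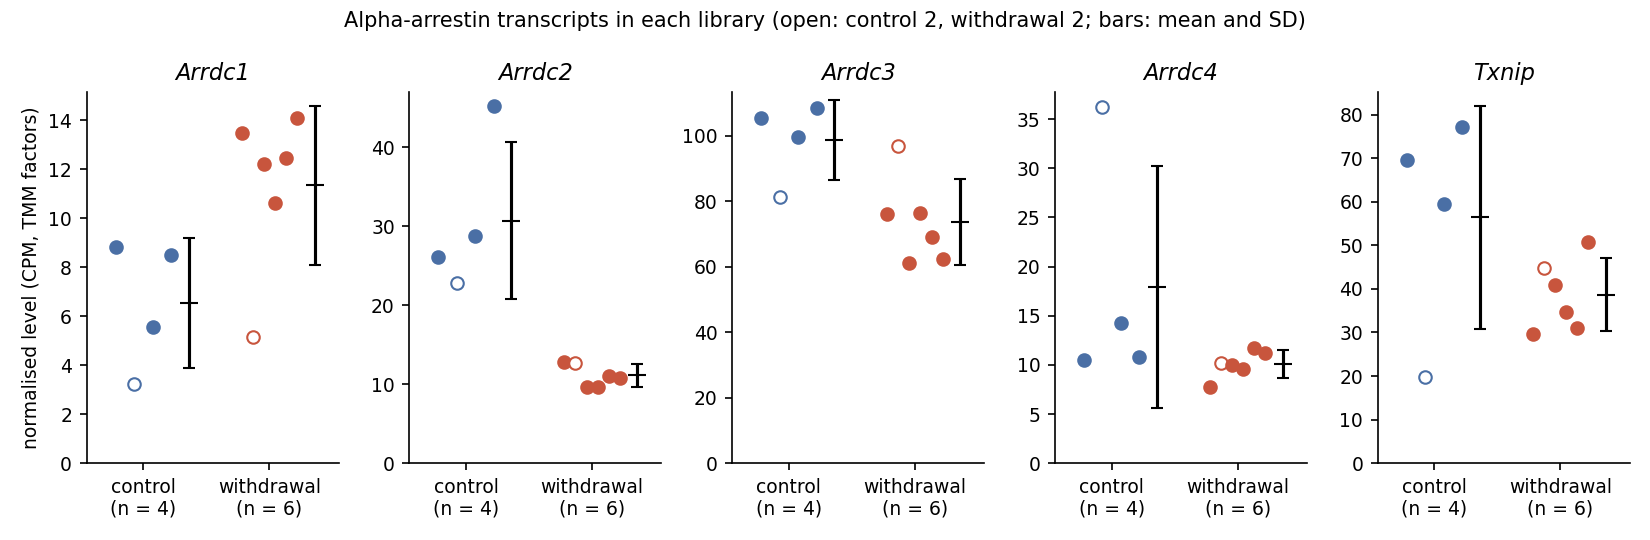
Points give the level of each gene in CPM (y axis, a separate scale for each gene) in every library by group, with the mean and SD beside them. Open points are control 2 and withdrawal 2, which lack most habenula transcripts, and Arrdc2 is the gene whose groups do not overlap.

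Without control 2 and withdrawal 2, 4 of the 5 members were called by edgeR, Arrdc2, Arrdc3 and Txnip lower and Arrdc1 higher, where 14.0% of all tested genes were called. In those 8 libraries the withdrawal values of the same 4 members all lay on 1 side of the controls, which held for 23.3% of tested genes. Arrdc4 still overlapped. Nothing is read from these counts, since the members were picked with the comparison known. Of 13 marker lists, 4 were also apart in the 8 libraries, all lower in withdrawal. Their summed levels in the 3 controls and 5 withdrawal libraries were 7662 to 8327 and 4075 to 6937 CPM for oligodendrocytes and 411 to 420 and 304 to 385 CPM for their precursors. They were 219 to 281 and 45.4 to 173 CPM for meningeal fibroblasts and 565 to 1083 and 401 to 486 CPM for hippocampal and cortical neurons. The part of these markers in the members' levels was not tested. Endothelial and pericyte markers overlapped, at 276 to 313 and 202 to 294 CPM.

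**Figure D4:**
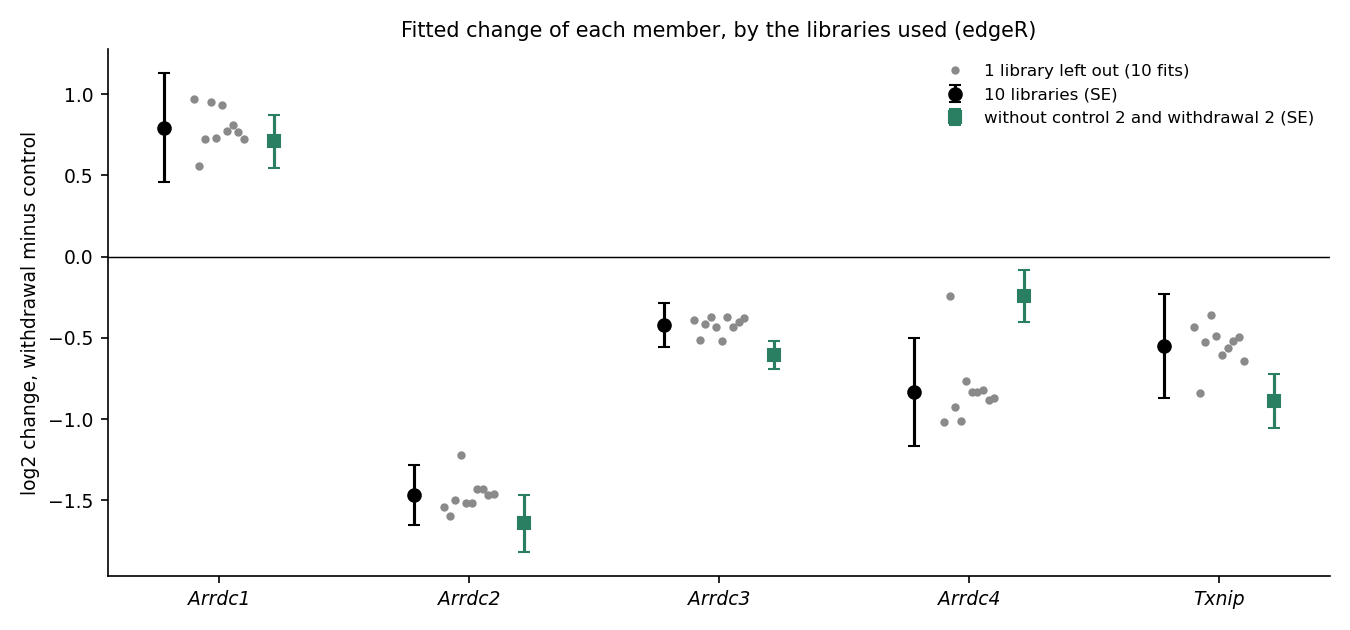
The y axis is the edgeR log2 change (withdrawal minus control) of each gene on the x axis, from all 10 libraries, from the 10 fits that each leave out 1 library, and without control 2 and withdrawal 2 (bars are SE). Arrdc1 stays above 0 and the other 4 genes below 0 in every fit drawn, and the Arrdc4 change is -0.24 without control 2.

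The genes most alike to each member were listed by Pearson correlation of log2 CPM over the 10 libraries, as a description. For Arrdc2 they were Nfkbia, the inhibitor of NF-kappaB (0.98), the ubiquitin ligase subunit Fbxl14 (0.98) and the lipid droplet protein Plin4 (0.97). Like Arrdc2 and 1.69% of all tested genes, each of these lay lower in all withdrawal libraries than in all controls. Genes picked for their likeness to Arrdc2 tend to share its separation, so nothing is read from it. For Arrdc3 they were Sox8, a transcription factor of the oligodendrocyte lineage (0.98), and the myelin genes Cldn11 (0.98) and Mal (0.96). For Txnip they were Ifitm1 (0.97), the fatty acid desaturase Fads1 (0.96) and Igfbp5, a binding protein of insulin-like growth factors (0.96). For Arrdc1 they were Rabl2 (0.99), Maged2 (0.99) and the adhesion receptor Adgrg1 (0.99). For Arrdc4 they were Arhgef17 (0.99), Speg (0.98) and Noc2l (0.98). In the 8 libraries without control 2 and withdrawal 2 the values were 0.95 to 0.99 for the genes like Arrdc1, Arrdc2, Arrdc3 and Txnip, and 0.88 to 0.91 for those like Arrdc4. All 10 libraries share 1 set of groups and the divergent pair, so such values are partly set by both.

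The partners through which alpha-arrestins act were then examined in 7 lists of 71 genes, of which 62 were measured above the filter. None of the 62 was called by edgeR over all 10 libraries, and 14 had an unadjusted p under 0.05, where 15.4% of all tested genes did. DESeq2 called 5 of the 62, all 5 lower, where it called 2.55% of all tested genes, and limma on log2(FPKM + 1) called 0, where it called 0.0804%. Without control 2 and withdrawal 2 the medians of these 7 lists lay between -0.18 and 0.03. Among the ligases, 0 of 11 Nedd4 family members and adaptors were called, 3 had an unadjusted p under 0.05, DESeq2 called 1 (Nedd4l) and limma 0, and the median log2 change was 0.07 against 0.0034 for all tested genes. Nedd4l, a ligase that removes sodium channels and other membrane proteins, was 248 ± 90.0 CPM in controls against 145 ± 15.1 CPM after withdrawal (log2 change -0.77, edgeR adjusted p = 0.205). Without control 2 its log2 change was -0.51. All its withdrawal libraries lay below the controls, which held for 1.69% of all tested genes. Wwp2, a related ligase, was 38.8 ± 2.93 and 46.7 ± 3.51 CPM (log2 change 0.27, edgeR adjusted p = 0.252). None of 9 ESCRT partners was called by edgeR, DESeq2 or limma, and 1 had an unadjusted p under 0.05 in each. Vps28 had a log2 change of 0.27 and Tsg101, the partner of Arrdc1, 0.10, or 0.18 without control 2 and withdrawal 2.

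Arrestin relatives and the cargo list gave few differences. Of 8 relatives, 5 were measured and none was called by edgeR, DESeq2 or limma, with 1 at an unadjusted p under 0.05 in edgeR and a median log2 change of -0.01. Arrdc5, the remaining alpha-arrestin, was listed at a mean of 0.071 FPKM and not tested. The beta-arrestin Arrb1 had a log2 change of 0.15 and Vps26b, a retromer subunit with an arrestin fold, -0.32 (edgeR adjusted p = 0.328 and 0.301). Without control 2 the Vps26b value was -0.15. Of 8 cargo proteins in that list, 5 were measured and none was called. In edgeR, DESeq2 and limma 0 had an unadjusted p under 0.05. Slc2a1, another cargo, was counted in the glucose list below, where DESeq2 called it. The thrombin receptor F2r had a log2 change of 0.47 and Notch1 -0.11, and without control 2 these were 0.26 and -0.04.

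Txnip acts on thioredoxin and on glucose uptake. In the thioredoxin list 0 of 14 were called by edgeR, 2 had an unadjusted p under 0.05, DESeq2 called 1 (Prdx6) and limma 0, and the median log2 change was 0.05. Prdx6, a peroxiredoxin abundant in astrocytes, was 230 ± 10.9 CPM in controls against 185 ± 20.2 CPM after withdrawal (log2 change -0.32, edgeR adjusted p = 0.230). Txn1, the thioredoxin that Txnip binds, was 37.4 ± 4.11 and 45.7 ± 5.98 CPM (log2 change 0.29, edgeR adjusted p = 0.295). In the glucose list 0 of 10 were called by edgeR, 3 had an unadjusted p under 0.05, DESeq2 called 1 (Slc2a1) and limma 0, and the median was -0.11. Slc2a1, the glucose transporter of the blood-brain barrier and a Txnip cargo, was 147 ± 17.7 CPM in controls against 111 ± 8.29 CPM after withdrawal (log2 change -0.41, SE 0.0896, edgeR adjusted p = 0.158). All its withdrawal libraries lay below all controls, which held for 1.69% of all tested genes. For Slc2a6, a related transporter, the log2 change was -0.76, not called by edgeR (adjusted p = 0.272). Control 2 held 37.9 CPM of Slc2a6 against 13.2 to 18.6 CPM in the other controls, and without it the log2 change was -0.31.

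Transcription factors known to act on Txnip or on stress-responsive members were lower in mean in 7 of 8 measured genes over the 10 libraries. Their median was -0.30, against 0.0034 for all tested genes, or -0.18 without control 2 and withdrawal 2. Without that pair Mlxip turned from -0.08 to 0.05 and Foxo6 went from -1.20 to -0.06. The changes of Foxo3 and Mlx became smaller, and those of Foxo1, Foxo4 and Nr3c2 larger. Nr3c1, which was higher over the 10 libraries, went from 0.06 to 0.20. Over the 10 libraries edgeR called none of the 8, and 4 had an unadjusted p under 0.05. DESeq2 called 2 (Foxo1 and Foxo3) and limma 0. Foxo3 is a forkhead factor held out of the nucleus by insulin signalling. It was 82.2 ± 14.2 CPM in controls against 61.6 ± 2.30 CPM after withdrawal (log2 change -0.41, edgeR adjusted p = 0.192). The highest withdrawal value of Foxo3 was 65.6 CPM and the lowest control value 72.2 CPM. Such a gap held for 1.69% of all tested genes. Foxo1, its relative, was 49.5 ± 2.78 and 33.8 ± 7.62 CPM (log2 change -0.55, edgeR adjusted p = 0.238). Without control 2 and withdrawal 2, 12 of the 62 partners were called, 5 higher and 7 lower, where 14.0% of all tested genes were called. Foxo1, Foxo3, Slc2a1, Prdx6 and Nedd4l were among the lower ones and Txn1, Tsg101 and Vps28 among the higher ones. Those 5 lower genes and Vps28 were also called when withdrawal 2 alone was left out.

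A list of glucocorticoid-induced genes held all 8 partners that edgeR called over the 10 libraries. In edgeR 8 of 13 were called lower, where 0.208% of all tested genes were called in either direction. The log2 change was below 0 for 12 of the 13, with a median of -0.91. DESeq2 called 11 of the 13 and limma 4, all lower. Ddit4, an inhibitor of mTOR signalling, had a log2 change of -1.03, the metallothioneins Mt1 and Mt2 -0.71 and -1.11, and the sulfotransferase Sult1a1 -1.33 (edgeR adjusted p = 0.0270, 0.0296, 0.00461 and 0.0270). Mt1 and Mt2 are similar copies that may share reads. The log2 changes of the members were -1.47 for Arrdc2, which was called, and -0.83 for Arrdc4, -0.55 for Txnip, -0.42 for Arrdc3 and 0.79 for Arrdc1, which were not. This list was chosen with its behaviour in these libraries known, so its count is not independent evidence of a direction. The count was 12 without control 2 and withdrawal 2, and over all 8 lists the count of 8 called genes became 1 when control 3, control 4 or any withdrawal library other than withdrawal 2 was left out, 2 without control 1 and 21 without withdrawal 2.

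**Figure D5:**
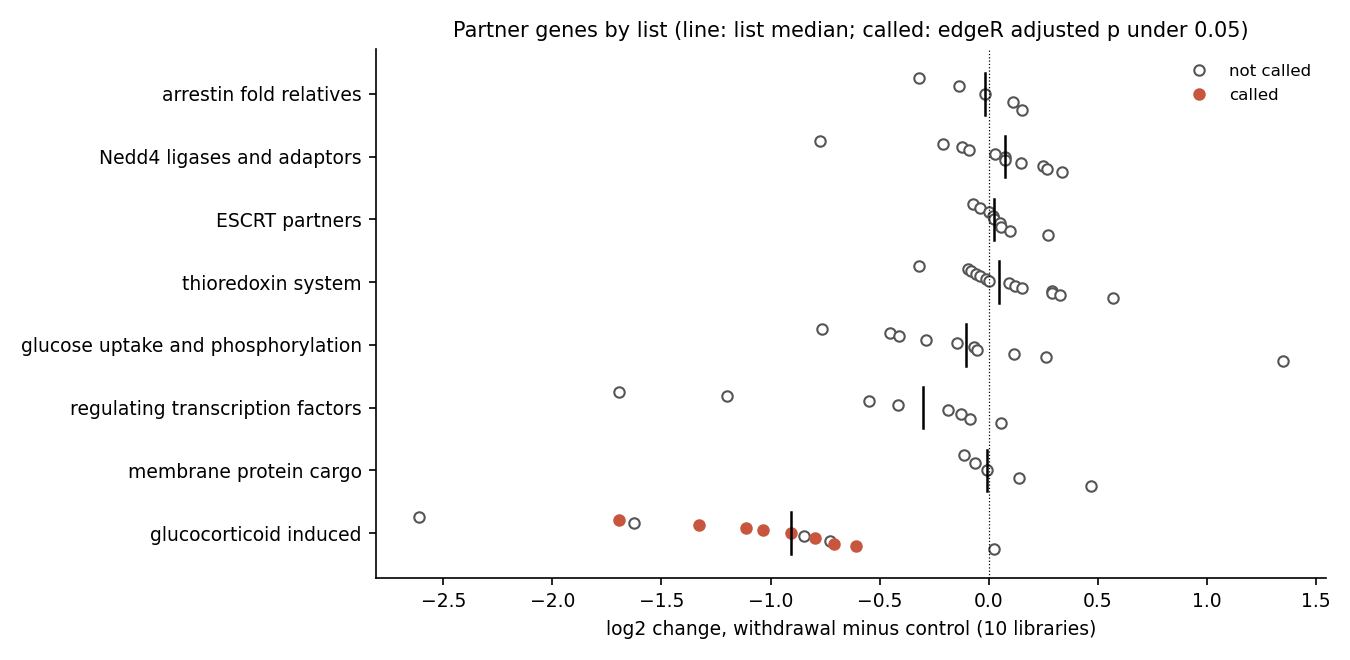
Each point is a measured partner gene, placed by its edgeR log2 change (withdrawal minus control, 10 libraries) on the x axis and by its list on the y axis, with the list median as a line. Filled points were called, and they occur in the glucocorticoid-induced list alone, 8 of 13.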

How the data were processed

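RNA sequencing libraries from 4 control and 6 withdrawal mice were used, grouped by the sample titles. The authors deposited whole-number read counts per gene and FPKM values in 1 table, per the file headers. Per the submitters' processing notes, cutadapt 1.9.1, HISAT2 2.2.1 and HTSeq 0.6.1 were used with the mm39 build. The annotation release, the strand setting and the gene lengths behind FPKM are not given in the sources used here. Symbols were matched by Ensembl identifier to GENCODE M21 for 52073 of 56691 genes. Library totals of 15023448 to 22026333 counts set the counting error, which the intervals give.

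Genes with a mean of at least 1 FPKM were kept, and these held at least 99.0% of the counts of every library. Counts were fitted with edgeR 4.0.16 (quasi-likelihood test, TMM factors, R 4.3.3) over all 14928 kept genes, with Benjamini-Hochberg adjustment and a threshold of 0.05. P-values weigh the difference between the groups against the spread of the libraries within them, which includes control 2 and withdrawal 2. Counts with known changes were simulated from a shared mean profile, so no simulated library diverged in content as control 2 and withdrawal 2 did. On these counts the fit over 10 libraries called 14.9% of 1.5-fold, 50.7% of 2-fold and 92.4% of 4-fold changes. Over 8 libraries these shares were 52.2%, 77.6% and 93.9%. A gene that was not called is therefore not shown to be unchanged. Alternatives were DESeq2 1.42.0, limma 3.58.1 on log2(FPKM + 1) and log2(FPKM + 0.1), other scaling factors and filters, the replicate number as a block, and fits that left libraries out. No 2 libraries held identical values.

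The members and the gene lists were chosen with earlier results of these data known. An oligodendrocyte marker of the original list is not reported here and was left out of the summed level. Named genes were the 5 members, up to 4 called genes of each list by smallest p, or the 2 with the smallest p where none was called, and the 3 genes most alike to each member. Likeness was the Pearson correlation of log2 CPM with a prior count of 2. Genes named for a call by another tool or in 8 libraries were added after their values were seen. Promoter windows were read from RefSeq on GRCm38.p6. The counts carry no coordinates, and no position was carried between builds.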

Additional observations from a re-analysis of the deposited data

Results flagged for a closer look

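Arrdc4 in control 2 stood apart from the other 3 controls at 36.2 CPM, against 10.5, 14.3 and 10.8 CPM in controls 1, 3 and 4. The gap to the nearest control exceeded the 95% critical value of Dixon's test for a group of 4. It was the only library set apart among 10 groups of members examined, and chance sets apart about 1 in 20 such groups. The log2 change of Arrdc4 between withdrawal and control was -0.83 with this library and -0.24 without it.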

How the results depend on the processing

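The 31 calls over all genes became 380 in DESeq2, 20 with upper-quartile factors, 6 on library totals, 12 and 10 in limma on log2(FPKM + 1) and log2(FPKM + 0.1), 2088 without control 2 and withdrawal 2, and 4 to 911 when 1 library was left out. The 8 calls in the partner lists became 16, 1, 4, 3 and 24 in DESeq2, on library totals, in both limma fits and without the pair, and 1 to 21 with 1 library left out. Arrdc2 was no longer called on library totals (log2 change -1.42) or in the limma fits (-1.15 and -1.33), and ranged from -1.60 to -1.22 with 1 library left out, called in 4 of 10 such fits. Without the pair, Arrdc1 (0.71), Arrdc3 (-0.60) and Txnip (-0.89) were called. Arrdc3 ranged from -0.52 to -0.37 with 1 library left out and was called without withdrawal 2. Apart from the stated removals of libraries, the cause was not tested. None of the 5 members changed sign in the 19 alternatives run.

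With the replicate number as a block, edgeR called 0 genes and 0 partners, and Arrdc2 had a log2 change of -1.42. Deviations of same-numbered libraries correlated at 0.03, 0.31, -0.13 and 0.28 for numbers 1 to 4, and only number 2 matched its own number best, so the numbers were not taken to pair the mice. Arrdc1 in control 2 rested on 59 counts, the fewest of the 5 members in any library.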
